A study of Mus musculus with 53 samples.

Results

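The 8 genes described here encode proteins of the extracellular matrix that fibroblasts secrete: the small leucine-rich proteoglycans decorin (Dcn), lumican (Lum), biglycan (Bgn) and fibromodulin (Fmod), the large proteoglycan versican (Vcan), and the matricellular proteins periostin (Postn), SPARC (Sparc) and SPARC-like 1 (Sparcl1). They were chosen by symbol, out of 8252 genes that had a symbol of their own on the array. The array carried 10 probe sets for them, a pair each for Bgn and Fmod and 1 for each of the others, and all 10 passed the filter on dim signals. NIH-3T3 cells, an established line of mouse embryonic fibroblasts, carried EBF1, PPARg2 or the empty vector, and received hormones that start adipocyte differentiation. Both inserts are transcription factors: PPARg2 is the main regulator of the fat cell programme, and EBF1 is known from B lymphocyte and adipocyte development. Total RNA was measured on 53 Affymetrix arrays at day 0 (d0), d2, d4 and d10. EBF1 cells gave 4, 4, 7 and 2 arrays at d0, d2, d4 and d10, PPARg2 cells (called PPARg below) 4, 4, 7 and 3, and vector cells 4, 4, 7 and 3. Vector cells were transduced and given hormones like the others. Day 0 was before hormones, so at d0 each insert was compared with transduced, unstimulated cells, and on later days with transduced, stimulated cells. The labels speak of 7 independent stimulations without tying arrays to them, and do not say whether the transduction was repeated, so p-values measure only the spread between these arrays.

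Small leucine-rich proteoglycans are core proteins with short leucine-rich repeats that bind collagen fibrils, set their spacing and diameter and, in the case of decorin and biglycan, bind growth factors such as TGF-beta. Versican binds hyaluronan and fills the loose matrix around dividing and migrating cells. Periostin and SPARC bind collagen and tune how cells attach to it; periostin is a known TGF-beta target, and mice without SPARC are known to carry more fat. Fibroblasts that turn into adipocytes exchange a collagen and fibronectin matrix for a basement membrane, which is the setting in which such genes are usually followed in 3T3 cells.

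The promoters of 3 members on which the comparisons below turn are printed here, each as 250 bases before and 50 bases after a RefSeq gene start (build GRCm38.p6), read 5′ to 3′ on the gene's strand. Postn differed most between EBF1 and vector cells at d0, and Vcan and Bgn were lower with either insert at d10. Of the 8 genes, Bgn, Fmod, Vcan, Postn and Sparc had such a window and Postn had a pair of them, while Dcn, Lum and Sparcl1 had no entry in the table used. The Vcan gene, on the minus strand, begins at 89743027, outside its window, so the window printed for it also belongs to a downstream start. Capitals mark a match, on either strand, to any of 4 motifs: the EBF core CCCNNGGG, the AP-1 site TGANTCA, the TATA box TATAAA, and a direct repeat of AGGTCA with 1 base between the copies and up to 2 mismatches, the kind of element PPARg binds with its partner RXR.
Postn, downstream start, chr3:54360857-54361156, plus strand: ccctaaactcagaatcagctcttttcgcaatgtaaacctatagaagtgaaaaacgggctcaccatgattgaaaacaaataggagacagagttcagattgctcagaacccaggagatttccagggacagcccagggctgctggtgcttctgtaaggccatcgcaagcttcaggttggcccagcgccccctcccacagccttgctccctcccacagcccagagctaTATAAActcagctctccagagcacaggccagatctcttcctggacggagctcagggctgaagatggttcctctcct
Vcan, chr13:89742463-89742762, minus strand: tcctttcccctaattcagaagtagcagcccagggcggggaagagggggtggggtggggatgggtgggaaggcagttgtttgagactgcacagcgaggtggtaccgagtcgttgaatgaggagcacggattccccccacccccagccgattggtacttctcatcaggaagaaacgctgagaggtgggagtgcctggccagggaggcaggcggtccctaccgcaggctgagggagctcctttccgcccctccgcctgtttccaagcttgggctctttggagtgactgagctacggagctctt
Bgn, chrX:73483351-73483650, plus strand: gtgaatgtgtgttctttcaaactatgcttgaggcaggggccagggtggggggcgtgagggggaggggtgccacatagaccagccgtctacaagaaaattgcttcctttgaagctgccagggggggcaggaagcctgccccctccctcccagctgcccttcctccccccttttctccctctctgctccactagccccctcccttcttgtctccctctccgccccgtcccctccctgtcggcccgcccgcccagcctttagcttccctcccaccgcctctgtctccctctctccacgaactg
The only match in the 6 windows of the members was the TATA box of the downstream Postn window, whose first base lies at position -26 from the start. Over all 32851 windows of this length, 13.6% held a TATA box, 13.7% the EBF core, 7.81% the AP-1 site and 3.86% the direct repeat. These letters are a description of the windows, not evidence of binding or of its absence.

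Array intensities were on a linear scale, as the authors deposited them, and comparisons were made on log2 values, with a log2 difference of 1 meaning a doubled signal. The probe set for Pparg read 58.3 to 304 in PPARg cells, 17.3 to 272 in EBF1 cells and 16.5 to 96.4 in vector cells over all days. At d0 the Pparg ranges were 58.3 to 89.3 in PPARg cells, 17.3 to 20.4 in EBF1 cells and 16.5 to 21.8 in vector cells, so that PPARg cells stood apart. The Ebf1 probe set overlapped at d0, at 176 to 390.2 in EBF1 cells, 131 to 274 in PPARg cells and 197 to 288 in vector cells, and the part of the transcript it covers is not stated, so it does not check the EBF1 label. The experiment files carry a date for each array, and the arrays were grouped here by month into 3 sessions, with neighbouring months pooled in the second. The first and the second contained 2 arrays of each d0, d2 and d4 group apiece, and the third contained the remaining d4 arrays and every d10 array. No session held both d0 and d10, so the difference between those days and the difference between sessions cannot be told apart.

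Within an array, 7 of the 8 genes were among the brighter signals: the mean log2 intensity of Dcn and Bgn lay at the 99.5th percentile of all probe sets, that of Vcan at 98.5, Postn at 98.0, Sparc at 95.6 and Lum at 85.0, with Sparcl1 at 83.1. Fmod was dim, at the 38.0th percentile for the brighter and 35.1 for the other of its probe sets. Intensities of different probe sets are not on a common scale, so these positions do not rank the transcripts. Over the 12 group means, the range on the log2 scale was 4.03 for Lum (16.3-fold), 3.48 for Postn (11.1-fold), 2.86 for Sparcl1 (7.25-fold), 2.19 for Vcan, 2.02 for Dcn, 1.89 for Sparc, 0.85 for Bgn and 0.79 for Fmod, against a median of 0.57 over all probe sets tested. All 8 ranges were thus above the middle of the array, those of Bgn and Fmod least. Such a range also grows with the spread between arrays, whose pooled SD within groups was 0.51 for Fmod and 0.097 for Bgn. This probe set of Fmod passed in no comparison, so its range does not show a change between groups.

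**Figure D1:**
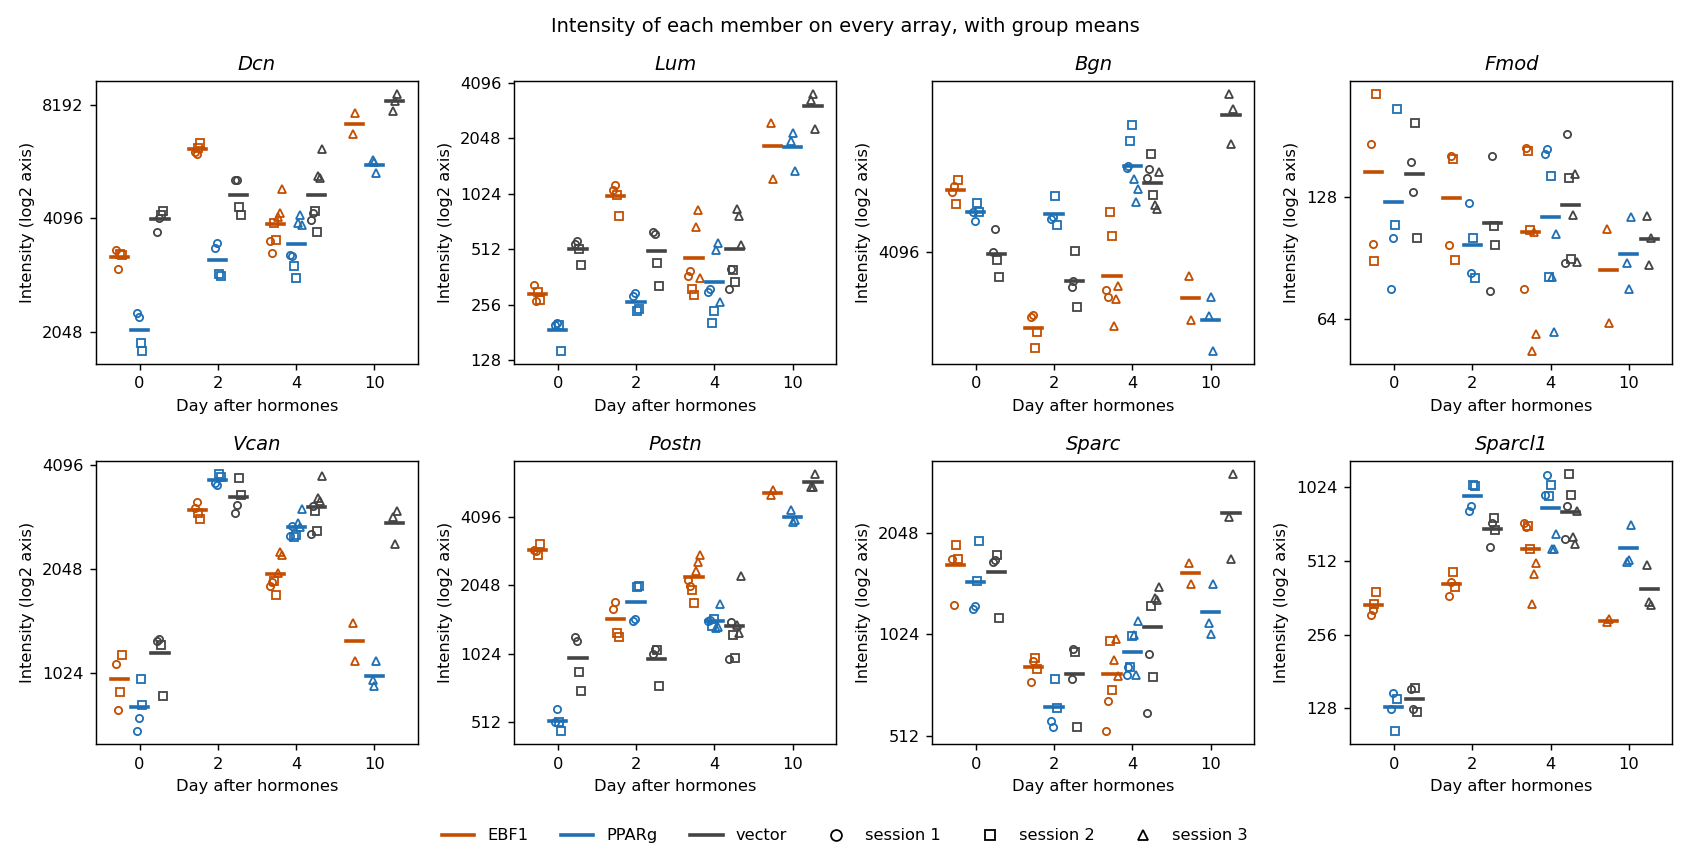
Intensity of each member (log2 axis) on every array, by day after hormones, with EBF1, PPARg and vector side by side within each day. Each symbol is 1 array, its shape gives the session, and the bars are group means. Postn and Sparcl1 separate EBF1 cells from both other groups at d0, Lum and Dcn climb in all 3 groups by d10, and Vcan separates vector cells at d10, where the lowest vector array reads 2416 and the highest array with an insert 1429.7.

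A member was counted as past the test when its Benjamini-Hochberg adjusted p, taken over all 7619 probe sets in that comparison, was under 0.05 in limma. Between EBF1 and vector cells, 2 of the 8 genes passed at d0 (background over all probe sets 0.814%), 1 at d2 (1.54%), 5 at d4 (18.9%) and 2 at d10 (18.3%). Between PPARg and vector cells, 4 passed at d0 (3.6%), then 2 at d2 (0.564%), 1 at d4 (7.49%) and 4 at d10 (23.6%). Between EBF1 and PPARg cells, the counts were 3 at d0 (6.02%), then 4 at d2 (5.15%), 4 at d4 (5.95%) and 1 at d10 (1.33%). The shares of the 8 genes were above the background at d0 and d2, where few probe sets changed, and with 8 genes the counts for PPARg at d4, EBF1 at d2 and d10 and EBF1 against PPARg at d10 were within 1 gene of what the background share gives. The comparisons with vector share the vector arrays. At d2, same-numbered EBF1 and vector arrays were treated as pairs, and with the replicate as a block 4 genes in place of 1 passed there. The session as a block gave 4 genes too. Probe sets past the test in that comparison rose from 117 to 220 with the replicate block and to 227 with the session block. With the session as a block 5 genes passed for EBF1 at d0 and 7 for PPARg at d10. For EBF1 at d0 the probe sets past the test also rose, from 62 to 102. The members added for EBF1 at d0 were Dcn (-0.33, adjusted p = 0.0078), Lum (-0.81, adjusted p = 0.03) and Bgn (0.25, adjusted p = 0.0162). Those added for PPARg at d10 were Lum (-0.73, adjusted p = 0.018), Postn (-0.51, adjusted p = 0.0262) and Sparcl1 (0.56, adjusted p = 0.00941).

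More members passed at the day steps. In EBF1 cells 6 of 8 changed at d2 against d0 (background 22.2%), 5 at d4 against d2 (22.9%) and 6 at d10 against d4 (15.1%). In PPARg cells 5 changed at d2 (23.6%), 3 at d4 (40.6%) and 5 at d10 (18.2%). In vector cells 3 changed at d2 (21.5%), 2 at d4 (12%) and 6 at d10 (18.4%). A test of whether the difference from vector itself changed from d0 found 3 genes at d4 (7.26%) and 4 at d10 (12.7%) for EBF1, and 2 at d4 (1.64%) and 2 at d10 (12.3%) for PPARg. In the PPARg step to d4 the share of members was close to the background, and in the other steps it was above it.

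**Figure D2:**
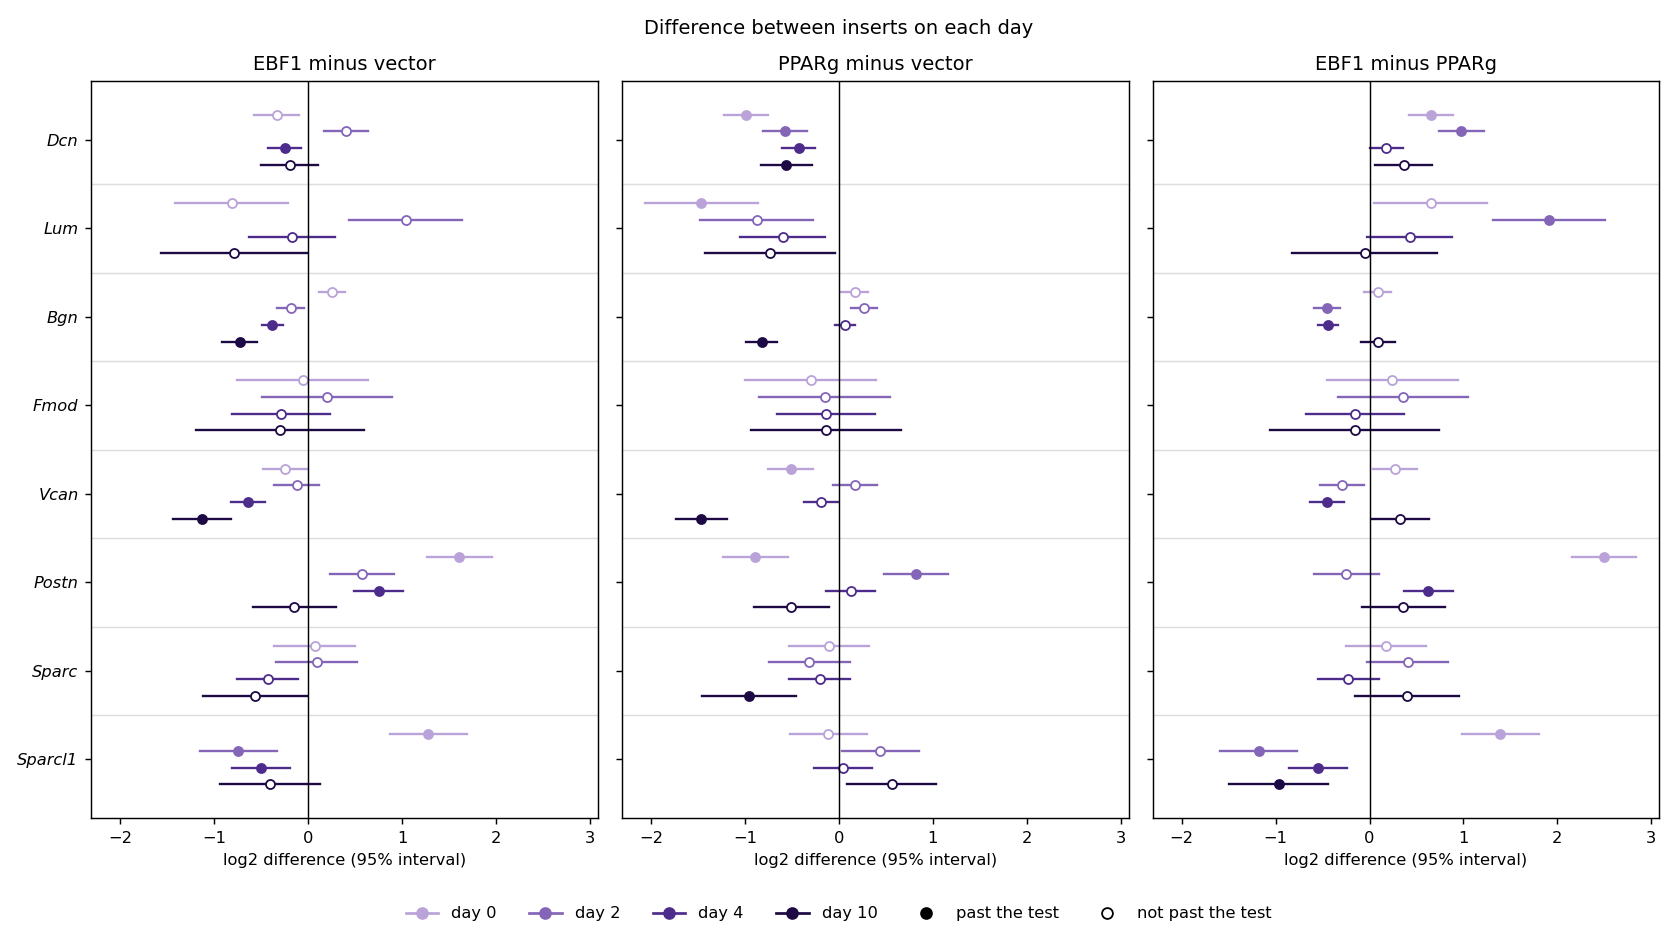
Log2 difference between inserts for each member on each day, in the panels EBF1 minus vector, PPARg minus vector and EBF1 minus PPARg. Points are limma estimates with 95% intervals, filled where the adjusted p passes. The difference of Postn between EBF1 and vector cells is 1.61 on d0, 0.57 at d2, 0.75 on d4, then -0.15 on d10, and that of Vcan is -1.13 with EBF1 and -1.46 with PPARg at d10.

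Decorin and lumican are collagen fibril proteoglycans whose genes are neighbours on chromosome 10: Dcn lies at 97479500 to 97518163 and Lum at 97565501 to 97572703, 47.3 kb apart (GRCm38.p6). Both were lower in PPARg cells than in vector cells at d0. Dcn had intensities of 2290.3, 2239.6, 1913 and 1821 in PPARg cells, against 3765, 4099, 4179 and 4268 in vector cells at d0. The groups did not overlap, and the log2 difference was -0.99 ± 0.12 (SE; adjusted p = 6.49e-08), a 1.98-fold lower signal. In these bulk samples, fewer cells that express a gene and less of its RNA in each cell cannot be told apart. Lum read 199, 204, 198 and 143 in PPARg cells and 549, 568.3, 511 and 419 in vector cells at d0, again without overlap (-1.46 ± 0.30, adjusted p = 0.00126). Replicate 4 of the PPARg cells stood apart from its group, and without it the difference still passed; leaving out any 1 array gave -1.56 to -1.34. Within sessions 1 and 2 the d0 difference of Dcn was -0.79 and -1.18, and that of Lum -1.47 and -1.46.

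EBF1 cells lay between the other groups at d0 and above both at d2. At d0 Dcn averaged 3234 ± 163 in EBF1 cells, 2066 ± 234 in PPARg cells and 4078 ± 219.6 in vector cells (SD, n = 4 each). The EBF1 value was above that of PPARg cells by 0.65 ± 0.12 (adjusted p = 0.000128) and below that of vector cells on every array, by an amount that missed the threshold (-0.33 ± 0.12, adjusted p = 0.343). Lum at d0 averaged 291 ± 27.4 in EBF1 cells, also below vector cells without passing (-0.81 ± 0.30, adjusted p = 0.411), and both of these differences passed with the session as a block. At d2 Dcn had 6126, 6063, 6295 and 6468 in EBF1 cells, 3405, 3514, 2918 and 2875 in PPARg cells and 5183, 5164, 4389 and 4179 in vector cells. Lum had 1074, 1147, 1011 and 773 in EBF1 cells, 286, 295, 237 and 241 in PPARg cells and 633, 615, 430.3 and 322 in vector cells. For both genes every EBF1 array was above every array of the other 2 groups. The difference from PPARg passed for Dcn (0.98 ± 0.12, adjusted p = 3.19e-08) and for Lum (1.91 ± 0.30, adjusted p = 8.69e-06, 3.76-fold). The difference from vector missed the threshold for Dcn (0.41 ± 0.12, adjusted p = 0.0656) and Lum (1.04 ± 0.30, adjusted p = 0.0637). With the replicate block it passed for Dcn (0.41, adjusted p = 0.00038) and Lum (1.04, adjusted p = 1.2e-05), and for Lum also without vector replicate 1 (1.17, adjusted p = 0.0463) or 2 (1.16, adjusted p = 0.0487).

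In PPARg cells Dcn stayed below vector cells on every later day. The log2 difference was -0.57 ± 0.12 at d2 (adjusted p = 0.00604), -0.43 ± 0.089 at d4 (adjusted p = 0.000925) and -0.56 ± 0.14 at d10 (adjusted p = 0.00133). At d10 the 3 PPARg arrays read 5860.3, 5760.4 and 5385 and the 3 vector arrays 7910.4, 8409 and 8757, without overlap. The d2 call was lost without vector replicate 2 (-0.53, adjusted p = 0.0513). The corresponding differences of Lum pointed the same way, at -0.87 ± 0.30 at d2, -0.60 ± 0.23 at d4 and -0.73 ± 0.34 at d10. None of these 3 passed without a block, and all 3 passed with the session as a block (adjusted p = 0.0173, 0.00755 and 0.018). The d4 one also passed without PPARg replicate 6 (-0.73, adjusted p = 0.0416). The PPARg difference of Dcn was smaller at d4 than at d0 by 0.56 ± 0.15 (adjusted p = 0.0335). That change was lost in 12 of 22 fits that left out 1 array, with adjusted p up to 0.1. Dcn was also lower in EBF1 than in vector cells at d4 (-0.25 ± 0.089, adjusted p = 0.0413), a call lost in 7 of 14 such fits (adjusted p up to 0.171), and within session 2 the difference was -0.091.

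By d10 both genes rose in every group. Lum averaged 291 ± 27.4, 1001 ± 162, 461 ± 212 and 1852 ± 873 in EBF1 cells at d0, d2, d4 and d10 (SD, n = 4, 4, 7 and 2). The same days gave 186 ± 28.6, 265 ± 29.8, 339 ± 136 and 1847 ± 425 in PPARg cells (n = 4, 4, 7 and 3) and 512 ± 66.1, 500.2 ± 150.1, 515 ± 215 and 3062 ± 673 in vector cells (n = 4, 4, 7 and 3). For Lum, EBF1 cells thus rose at d2, fell back at d4 and rose again, while the other groups rose mainly between d4 and d10. Dcn rose at d2 in PPARg cells too (0.62 ± 0.12, adjusted p = 4.1e-05), and in vector cells its d2 step (0.21 ± 0.12) passed with the session as a block (adjusted p = 0.0337) but not without it. The d2 rise of EBF1 cells was 1.77 ± 0.30 for Lum (adjusted p = 5.66e-06) and 0.95 ± 0.12 for Dcn (adjusted p = 7.28e-09), and the d4 fall -1.22 ± 0.26 and -0.67 ± 0.10 (adjusted p = 0.000347 and 1.41e-06). From d4 to d10, the change of Lum was 2.03 ± 0.34 in EBF1, 2.51 ± 0.29 in PPARg and 2.65 ± 0.29 in vector cells (adjusted p = 1.04e-05, 2.82e-09 and 6.14e-10). Session 3 alone, which held arrays of both days, gave 1.57, 2.11 and 2.09. The change of Dcn was 0.89 ± 0.13, 0.71 ± 0.11 and 0.84 ± 0.11 in the same order, and 0.73, 0.49 and 0.58 within session 3. The EBF1 pair of arrays at d10 lay far apart for Lum, at 2469 and 1235, so no order of the d10 levels of Lum can be read between EBF1 and PPARg cells (-0.053 ± 0.39).

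Biglycan, the closest relative of decorin among these genes and encoded on the X chromosome (73483601 to 73495936), changed little in size but with a small spread. Its brighter probe set averaged 4851 ± 134, 3319 ± 141, 3828 ± 434 and 3608 ± 309 in EBF1 cells over the 4 days (SD). It averaged 4570.4 ± 89.1, 4545 ± 160.4, 5186 ± 385 and 3387 ± 254 in PPARg cells, and 4070.1 ± 225, 3777 ± 247, 4958 ± 282 and 5975 ± 414 in vector cells. Vector cells thus ended at their highest level and cells with either insert near their lowest. At d10 the arrays read 3826 and 3389 in EBF1 cells, 3432, 3615 and 3114 in PPARg cells and 6334, 5522 and 6069.6 in vector cells. Every array with an insert was below every vector array, and the log2 difference was -0.73 ± 0.091 for EBF1 (adjusted p = 1.6e-08) and -0.82 ± 0.081 for PPARg (adjusted p = 4.06e-11). The other probe set gave -0.83 ± 0.11 and -0.87 ± 0.10. Both differences had moved down since d0, with a change of -0.98 ± 0.12 for EBF1 and -0.99 ± 0.11 for PPARg (adjusted p = 5.45e-09 and 2.63e-09).

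The fall of Bgn came earlier in EBF1 cells. At d2 EBF1 cells were below PPARg cells on every array (3420.3, 3441, 3138 and 3279 against 4483, 4510.2, 4776 and 4408; -0.45 ± 0.07, adjusted p = 8.12e-06). PPARg cells at d2 were above vector cells by an amount that passed only without vector replicate 3 among the fits that left out 1 array (0.31, adjusted p = 0.0416). At d4 EBF1 cells were below PPARg cells and vector cells, with differences of -0.44 ± 0.053 and -0.38 ± 0.053 (adjusted p = 6e-08 and 4.38e-07), without overlap. Within sessions 1, 2 and 3 the d4 difference from vector was -0.48, -0.20 and -0.43. In EBF1 cells Bgn fell by d2 (-0.55 ± 0.07, adjusted p = 1.82e-08), whereas in PPARg cells it fell between d4 and d10 (-0.61 ± 0.069, adjusted p = 1.14e-09). In vector cells it rose at d4 (0.39 ± 0.062, adjusted p = 5.62e-06) and again at d10 (0.27 ± 0.069, adjusted p = 0.00305; 0.23 and 0.053 without vector d10 replicate 1). Small rises at d4 against d2 also passed in EBF1 (0.20 ± 0.062) and PPARg cells (0.19 ± 0.062). The other probe set gave 0.039 ± 0.078 and -0.019 ± 0.078 there and did not pass, and the EBF1 call was lost without EBF1 d2 replicate 3 (adjusted p = 0.0735) or d4 replicate 3 (0.0508), the PPARg call without PPARg d2 replicate 4 (0.0588).

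Fibromodulin, a collagen-binding relative of lumican, gave dim signals on which its probe sets disagreed. The brighter one, which carries the _r suffix that Affymetrix gives to sets with reduced selection rules, passed in none of the 25 limma comparisons, 0 of them at an unadjusted p under 0.05. Its linear group means lay between 84.6 ± 31.0 in EBF1 cells at d10 and 147 ± 66.6 in EBF1 cells at d0 (SD), with single arrays from 53.3 to 229.6. The other probe set was steadier and rose between d4 and d10. It averaged 153 ± 57.0 at d10 and 88.8 ± 11.8 at d4 in EBF1 cells, 124 ± 8.06 and 78.8 ± 10.5 in PPARg cells, and 215 ± 43.6 and 87.1 ± 19.5 in vector cells. A small fall in PPARg cells at d4 against d2 also passed (-0.40 ± 0.15, adjusted p = 0.0291). The d10 rise was 0.74 ± 0.19, 0.66 ± 0.16 and 1.31 ± 0.16 (adjusted p = 0.0038, 0.00235 and 1.59e-08). At d10 the PPARg arrays, at 131, 126 and 115, were all below the vector arrays, at 182, 198 and 264 (-0.77 ± 0.19, adjusted p = 0.00184). The EBF1 arrays, at 113 and 193, overlapped the vector arrays (-0.52 ± 0.22, adjusted p = 0.0918). Most of these values were below the pooled median intensity of 158, and the 2 probe sets of the gene give no common answer for Fmod.

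Versican, encoded on chromosome 13 next to the hyaluronan link protein gene Hapln1, rose sharply in all groups after hormones and then fell in the cells with either insert. It averaged 986 ± 164, 3021 ± 145, 1976 ± 217 and 1270.4 ± 225 in EBF1 cells at d0, d2, d4 and d10 (SD, n = 4, 4, 7 and 2). In PPARg cells the averages were 816 ± 124, 3703 ± 127, 2699 ± 180.4 and 1006 ± 89.4 (n = 4, 4, 7 and 3), and in vector cells 1167 ± 193, 3297 ± 341, 3089.9 ± 417 and 2776 ± 317 (n = 4, 4, 7 and 3). The d2 rise was 1.63 ± 0.12 in EBF1, 2.19 ± 0.12 in PPARg and 1.51 ± 0.12 in vector cells (adjusted p = 1.11e-15, 2.31e-20 and 1.51e-14), with no overlap between the days in any group. From d2 to d4 it fell in EBF1 (-0.62 ± 0.10) and PPARg cells (-0.46 ± 0.10; adjusted p = 6.96e-06 and 0.00078). From d4 to d10 it fell in PPARg cells (-1.43 ± 0.12, adjusted p = 6.5e-14) and in EBF1 cells (-0.64 ± 0.13, adjusted p = 0.000377); the EBF1 call was lost without EBF1 d10 replicate 2 (-0.46, adjusted p = 0.0872). In vector cells neither step passed (-0.10 ± 0.10 and -0.15 ± 0.12), but the second passed under quantile normalization (-0.28, adjusted p = 0.0179).

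At d10 Vcan read 1429.7 and 1111 in EBF1 cells and 974, 936 and 1107 in PPARg cells, against 2898, 2416 and 3014 in vector cells. The signal was 2.19-fold lower with EBF1 (-1.13 ± 0.15, adjusted p = 9.28e-08) and 2.75-fold lower with PPARg (-1.46 ± 0.14, adjusted p = 7.19e-12), and every array with an insert was below every vector array. The EBF1 cells had separated from vector cells by d4: the 7 EBF1 arrays had a lowest of 1719, a median of 1887 and a highest of 2291, against a lowest of 2586, a median of 3113 and a highest of 3806 in vector cells. That difference was -0.64 ± 0.089 (adjusted p = 3.78e-07), and -0.62, -0.64 and -0.66 within the 3 sessions. PPARg cells at d4 were above EBF1 cells (-0.45 ± 0.089 for EBF1 minus PPARg, adjusted p = 0.000603) and did not differ from vector cells past the threshold (-0.19 ± 0.089, adjusted p = 0.249; -0.28 and 0.00497 under quantile normalization, which passes). At d0 PPARg cells were lower than vector cells (-0.51 ± 0.12, adjusted p = 0.00534), but within session 2 the difference was -0.21. Vector replicate 4, at 880.0, was low in its own group, which makes the difference smaller. Leaving out any 1 array gave -0.64 to -0.44 and kept the call. Relative to d0, the difference from vector had moved down at d10, with a change of -0.89 ± 0.19 for EBF1 and -0.95 ± 0.18 for PPARg (adjusted p = 0.000648 and 0.000139). At d4 that change missed the threshold for EBF1 (-0.40 ± 0.15) and passed it without EBF1 d0 replicate 2 (-0.50, adjusted p = 0.0327).

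Periostin, on chromosome 3 (54359267 to 54391041), gave the largest insert difference of the 8 genes, and it did so at d0. Postn read 2929, 2893, 2792 and 3109 in EBF1 cells, 514, 588, 512 and 469 in PPARg cells and 1215, 1164, 850.3 and 706 in vector cells. The 3 groups did not overlap: EBF1 was above vector by 1.61 ± 0.17 (3.05-fold, adjusted p = 6.8e-09), and PPARg was below vector (-0.89 ± 0.17, 1.85-fold lower, adjusted p = 0.000562). EBF1 cells exceeded PPARg cells 5.64-fold (2.50 ± 0.17, adjusted p = 2.51e-15). Within sessions 1 and 2 the EBF1 difference from vector was 1.29 and 1.93, and the PPARg difference -1.11 and -0.66. Leaving out any 1 array kept the EBF1 difference at 1.46 to 1.72.

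After hormones Postn moved in opposite directions in the cells with an insert. At d2 it fell in EBF1 cells (-1.03 ± 0.17, adjusted p = 4.71e-06) and rose in PPARg cells (1.72 ± 0.17, adjusted p = 2.27e-11), and in vector cells the step was 0.008 ± 0.17 (adjusted p = 0.982). The d2 arrays for Postn read 1606, 1728, 1261 and 1215 in EBF1 cells, 1419.8, 1456, 2021 and 2029 in PPARg cells and 1020.5, 1073, 1068 and 742 in vector cells. Every array with an insert was above every vector array. The PPARg difference from vector passed (0.82 ± 0.17, adjusted p = 0.00644), within sessions 1 and 2 it was 0.46 and 1.19, and it was lost without PPARg replicate 3 or 4 (0.74 and 0.74, adjusted p = 0.0503 and 0.0656). The EBF1 difference missed the threshold (0.57 ± 0.17, adjusted p = 0.0783) and passed with the replicate block (0.57, adjusted p = 0.0118).

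At d4 Postn was again highest in EBF1 cells, with a lowest of 1717, a median of 2167 and a highest of 2782. PPARg cells had a lowest of 1323, a median of 1421 and a highest of 1691, and vector cells a lowest of 974, a median of 1264 and a highest of 2251. EBF1 was above vector by 0.75 ± 0.13 (adjusted p = 1.65e-05; 0.84, 0.73 and 0.71 within sessions 1, 2 and 3) and above PPARg by 0.62 ± 0.13 (adjusted p = 0.00116). The vector range overlapped that of EBF1 through replicate 7, in session 3. By d10 Postn had risen in all groups, by 1.25 ± 0.19 in EBF1, 1.51 ± 0.17 in PPARg and 2.14 ± 0.17 in vector cells (adjusted p = 2.94e-06, 8.43e-10 and 2.23e-14; 1.02, 1.496 and 1.88 within session 3). At that day the arrays read 5109 and 5341 in EBF1, 4379, 3897 and 3949.7 in PPARg and 5535, 5539 and 6294 in vector cells. The EBF1 difference from vector was then -0.15 ± 0.22 with a 95% interval of -0.59 to 0.30, which does not show equal levels. Relative to d0 it had dropped by 0.86 ± 0.21 at d4 and by 1.76 ± 0.28 at d10 (adjusted p = 0.00722 and 5.16e-06). For PPARg it had moved up by 1.02 ± 0.21 at d4 (adjusted p = 0.0058). A small rise in vector cells at d4 against d2 (0.44 ± 0.15, adjusted p = 0.05 after rounding and just under the threshold) was lost without any 1 of vector d2 replicates 1 to 4 or d4 replicates 2, 3, 5, 6 and 7, with adjusted p up to 0.273.

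**Figure D3:**
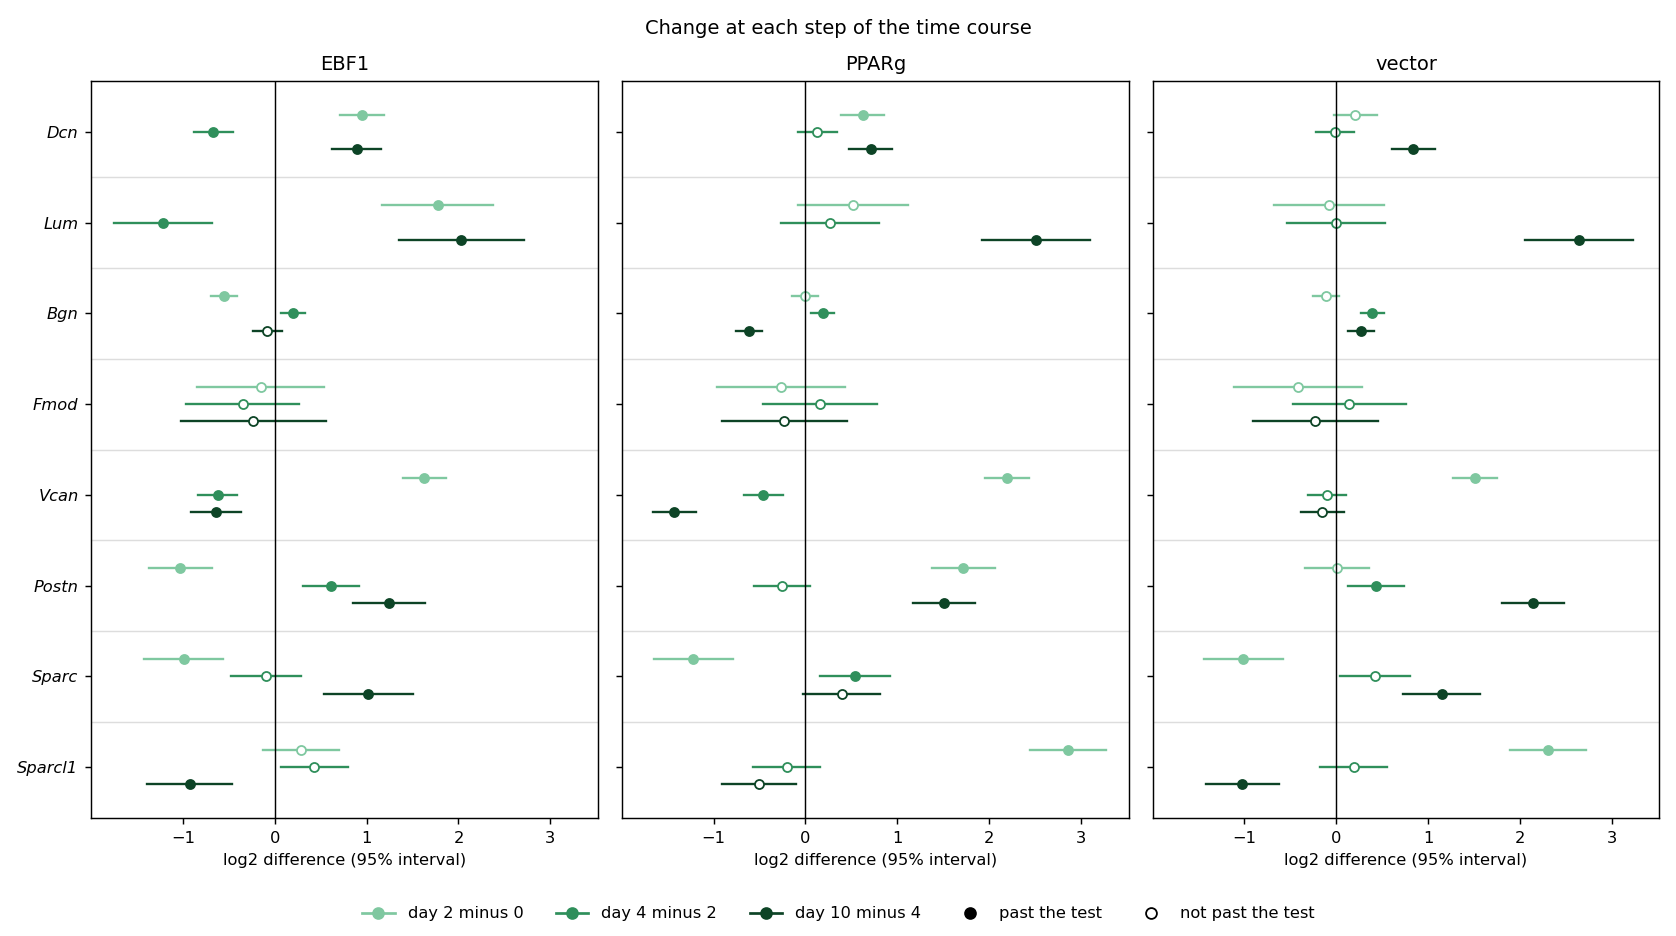
Log2 change of each member at each step of the time course in EBF1, PPARg and vector cells. Points are limma estimates with 95% intervals, filled where the adjusted p passes. The d2 step of Sparcl1 is 2.86 in PPARg and 2.30 in vector cells but 0.28 in EBF1 cells, and the d2 step of Postn has opposite signs with EBF1 and PPARg.

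SPARC, a collagen-binding glycoprotein encoded on chromosome 11, differed little between inserts until d10 and moved mainly with time. It averaged 1645 ± 272, 819.6 ± 58.4, 783 ± 171 and 1556 ± 153 in EBF1 cells over the 4 days (SD). The averages were 1467 ± 332, 623 ± 95.01, 906 ± 141 and 1193 ± 221 in PPARg cells and 1572 ± 285, 784 ± 178, 1077 ± 317 and 2355 ± 677 in vector cells. It fell at d2 in every group, with changes of -0.99 ± 0.21, -1.22 ± 0.21 and -1.01 ± 0.21 with EBF1, PPARg and vector (adjusted p = 0.00029, 1.12e-05 and 0.00024). At d10 it rose against d4 in EBF1 (1.02 ± 0.24, adjusted p = 0.0018; 0.0861 without EBF1 d10 replicate 1) and vector cells (1.15 ± 0.21, adjusted p = 3.25e-05). PPARg cells had instead risen at d4 against d2 (0.54 ± 0.19, adjusted p = 0.0232), a call lost without PPARg d2 replicate 1, 2 or 4 or d4 replicate 7, with adjusted p up to 0.0688. It was also lost with the session as a block (0.37, adjusted p = 0.0838) and with the replicate block (adjusted p = 0.0655), which is not a pairing for this step. At d10 the PPARg arrays, at 1104, 1030.4 and 1445, were below the vector arrays, at 2289, 1713 and 3062 (-0.96 ± 0.25, adjusted p = 0.00255). The EBF1 arrays, at 1664 and 1447, were also below them, but the difference of -0.56 ± 0.28 missed the threshold (adjusted p = 0.179) and passed under quantile normalization (-0.71, adjusted p = 0.0186). At d4 the EBF1 difference missed it narrowly (-0.43 ± 0.16, adjusted p = 0.055) and passed without vector replicate 1, 2 or 4 or EBF1 replicate 3 or 6, with adjusted p down to 0.00625. Without vector d4 replicate 1 the vector step from d2 to d4 also passed (0.56, adjusted p = 0.0281), and without vector d10 replicate 2 so did the change of the PPARg difference between d0 and d10 (-1.06, adjusted p = 0.0295).

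Sparcl1 (hevin, the closest relative of SPARC) shared with Postn its high d0 level in EBF1 cells. It read 307, 323, 341 and 383 in EBF1 cells, 127, 148, 103 and 140.1 in PPARg cells and 154, 127, 154 and 124 in vector cells. EBF1 cells were above both other groups on every array, 2.43-fold above vector (1.28 ± 0.20, adjusted p = 7.24e-05) and 2.62-fold above PPARg (1.39 ± 0.20, adjusted p = 3.31e-06). By d2 the order had turned round. The arrays then read 368, 420.3, 460.3 and 401 in EBF1 cells, 820.0, 857, 1039 and 1033 in PPARg cells and 582, 729.5, 764 and 686 in vector cells, with no overlap between any of the 3 groups. EBF1 cells were below PPARg cells (-1.18 ± 0.20, adjusted p = 5.38e-05) and below vector cells (-0.74 ± 0.20, adjusted p = 0.0472). The second of these calls was lost in 7 of 8 fits that left out 1 array, all except the one without vector replicate 1, with adjusted p up to 0.187 and differences of -0.82 to -0.69. Sessions 1 and 2 gave -0.73 and -0.75, and the replicate block -0.74 (adjusted p = 0.000741).

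The turn came with a rise of Sparcl1 at d2 in PPARg (2.86 ± 0.20, 7.25-fold, adjusted p = 6.64e-16) and vector cells (2.30 ± 0.20, 4.94-fold, adjusted p = 6.62e-13), while EBF1 cells gave 0.28 ± 0.20 (adjusted p = 0.4). The change of the EBF1 difference from d0 was -1.78 ± 0.26 at d4 and -1.69 ± 0.33 at d10 (adjusted p = 4.15e-06 and 0.000179). At d4 Sparcl1 averaged 572 ± 148 in EBF1 cells, 839 ± 235 in PPARg cells and 806 ± 203 in vector cells (SD, n = 7 each), with the session 3 arrays below the others in EBF1 and PPARg cells. EBF1 was below vector (-0.50 ± 0.15, adjusted p = 0.0153), with -0.039, -0.71 and -0.67 within sessions 1, 2 and 3, and the call was lost without vector replicate 3 (0.0609) or EBF1 replicate 5 (0.0721). It was below PPARg (-0.55 ± 0.15, adjusted p = 0.0225); the 3 sessions gave -0.55, -0.63 and -0.49, none past the threshold alone, and the call was lost without PPARg replicate 1, 2 or 4 or EBF1 replicate 5 or 6 (adjusted p up to 0.101).

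From d4 to d10 Sparcl1 fell in EBF1 (-0.93 ± 0.23, adjusted p = 0.00309) and vector cells (-1.02 ± 0.20, adjusted p = 0.000108). Within session 3 these steps were -0.55 (adjusted p = 0.111) and -0.81 (adjusted p = 0.00705), and the EBF1 call was lost without EBF1 d10 replicate 1 (adjusted p = 0.0741). With the session as a block they were -0.58 and -0.68 (adjusted p = 0.0148 and 0.000724). The EBF1 step from d2 to d4 (0.43 ± 0.18) missed the threshold (adjusted p = 0.0825), passed without EBF1 d4 replicate 5 (0.55, adjusted p = 0.0172), and passed with the session as a block (0.69, adjusted p = 9.12e-05). In PPARg cells the step from d4 to d10 was -0.50 ± 0.20 (adjusted p = 0.0718). It was -0.068 within session 3 and -0.16 with the session as a block (adjusted p = 0.476). The replicate block, which is not a pairing for this step, gave -0.75 (adjusted p = 9.01e-05). Without PPARg d4 replicate 5 or 6 or d10 replicate 3 the step passed (adjusted p = 0.031, 0.0298 and 0.0358). At d10 Sparcl1 read 288 and 296 in EBF1, 504, 514 and 719 in PPARg and 492, 348 and 339 in vector cells. EBF1 was below PPARg (-0.97 ± 0.26, adjusted p = 0.0479) without overlap, but that call was lost whichever of the 5 arrays was left out (adjusted p up to 0.606). The PPARg difference from vector was 0.56 ± 0.24 (adjusted p = 0.0819) and passed without vector replicate 1 (0.0415).

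The members did not move as a single block. Over the 12 group means the Pearson correlation was 0.94 between Dcn and Lum, 0.75 between Lum and Postn, 0.70 between Dcn and Postn and 0.74 between Vcan and Sparcl1. It was -0.65 between Sparc and Sparcl1 and -0.58 between Vcan and Sparc, while Dcn and Bgn, close relatives, gave -0.20. The group means share days, sessions and arrays, so these are descriptions without a test. Among all genes represented, the most like Dcn were Lum, Plpp3 (0.93) and Wdr13 (0.91), and the most like Lum were Dcn, Fzd1 (0.91) and Ogt (0.90). Those most like Bgn were Fgfr2 (0.87), Mef2d (0.85) and Ilkap (0.84), and most like Fmod Agr2 (0.99), Tnni2 (0.99) and Sh3bp2 (0.98). Vcan was most like Ccnd3 (0.95), Lxn (0.95) and Foxo3 (0.94), and Postn most like Wdr26 (0.92), Fzd4 (0.91) and Myo9a (0.91). Sparc was most like Cnn3 (0.98), Grcc10 (0.98) and Plekha1 (0.97), and Sparcl1 most like Fmo1 (0.91), Rogdi (0.90) and Cyp1b1 (0.90). The values for Fmod rest on its dim, noisy probe set, which passed in no comparison. Several of these genes moved little, with log2 ranges over the group means of 0.20 for Wdr26, 0.27 for Myo9a and 0.19 for Mef2d, against a median of 0.57.

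**Figure D4:**
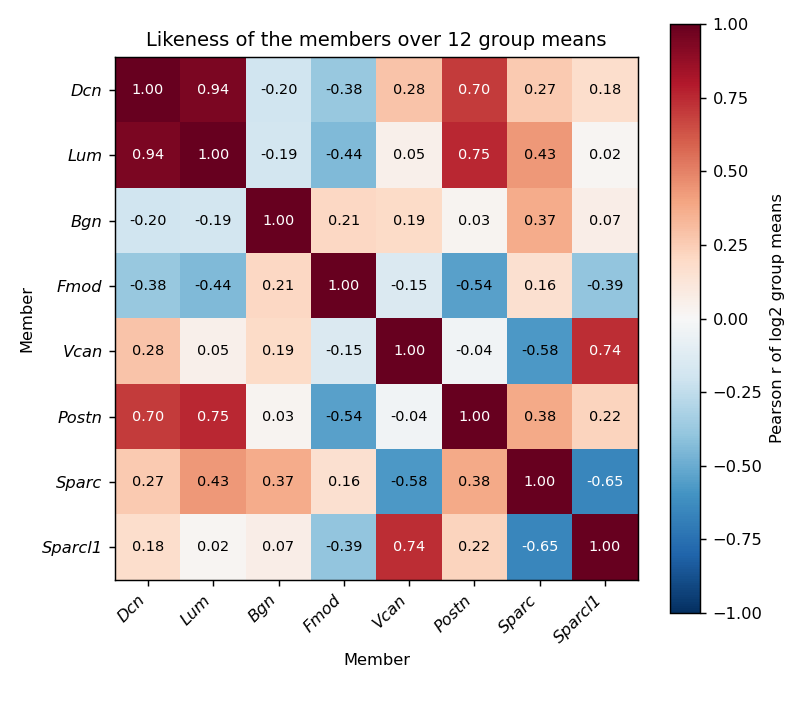
Pearson correlation between members over the 12 group means of log2 intensity, as a colour matrix with the value in each cell. Dcn and Lum give 0.94, Vcan and Sparcl1 0.74, and Sparc and Sparcl1 -0.65; Fmod is shown by its brighter, noisier probe set.

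Genes of 5 related lists were read in the same fit. Of the collagens, fibronectin and their processing enzymes that these proteins bind, 16 genes were tested, of which Col1a1, Col1a2, Col3a1 and Fn1 are also fibroblast markers below. At d10 8 were lower and 0 higher in PPARg than in vector cells (median -0.31, against -0.0034 over all probe sets), among them Col1a1, a chain of fibrillar collagen I (-1.02 ± 0.25, adjusted p = 0.00187), and Lox, which cross-links collagen (-0.998 ± 0.24, adjusted p = 0.00145). The share called over all probe sets was 23.6% there. In EBF1 cells 2 of 16 were lower at d10, a smaller share than the 18.3% over all probe sets, Col6a3 (-0.61 ± 0.14, adjusted p = 0.00118) and Bmp1, a procollagen protease (-0.50 ± 0.11, adjusted p = 0.000564), and 8 at d4 (median -0.24, against 0.045; 18.9% called over all probe sets). For the 8 genes described above, the medians were -0.65 for PPARg at d10, -0.48 for EBF1 at d10 and -0.33 for EBF1 at d4. In vector cells between d4 and d10, 8 of the 16 listed collagen and related genes rose and 3 fell, where 18.4% of all probe sets were called. Col3a1 was up (1.15 ± 0.10) and Col4a1, a basement membrane collagen, down (-2.03 ± 0.26), with adjusted p = 1.57e-12 and 4.25e-08.

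Of 10 tested genes of the SPARC family and other matricellular proteins, 4 were lower and 1 higher in PPARg than in vector cells at d10 (median -0.28), and 4 lower in EBF1 cells (median -0.19, against -0.019 over all probe sets). The shares called over all probe sets were 23.6% with PPARg and 18.3% with EBF1. Smoc2, a SPARC relative, was lower in both, at -1.38 ± 0.18 with PPARg and -1.33 ± 0.20 with EBF1 (adjusted p = 3.35e-08 and 9.41e-07). Fbln2, the elastic fibre and basement membrane protein fibulin 2, was lower in PPARg cells (-1.53 ± 0.21, adjusted p = 8.75e-08), and the thrombospondin Thbs2 in EBF1 cells (-0.92 ± 0.20, adjusted p = 0.000339). In vector cells 6 of the 10 rose and 0 fell between d4 and d10 (median 0.69, against 0.0094), where 18.4% of all probe sets were called. Tnc, the matricellular tenascin C, was up by 1.18 ± 0.17 and Smoc2 by 1.01 ± 0.15 (adjusted p = 2.33e-07 and 9.7e-07). At d0 Smoc2 and Thbs2 were lower in PPARg than in vector cells (-0.75 ± 0.15 and -0.66 ± 0.15, adjusted p = 0.00151 and 0.00532). They were the only 2 of the 10 to pass, where 3.6% of all probe sets were called.

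Of 5 tested relatives of the proteoglycans, 1 passed in each comparison of an insert with vector at d10, a share near the 23.6% (PPARg) and 18.3% (EBF1) over all probe sets, and it was Ogn, the small leucine-rich proteoglycan osteoglycin. It was lower with PPARg (-1.48 ± 0.28, adjusted p = 6.72e-05) and EBF1 (-0.92 ± 0.32, adjusted p = 0.0355), and also with PPARg at d0 (-0.88 ± 0.25, adjusted p = 0.0292). It fell at d2 in EBF1 (-2.04 ± 0.25), PPARg (-1.29 ± 0.25) and vector cells (-2.23 ± 0.25; adjusted p = 3.86e-09, 4.88e-05 and 4.26e-10). Of 9 tested genes for glycosaminoglycan chains, Has2, which makes the hyaluronan that versican binds, rose at d2, the step at which Vcan rose. The rise was 2.41 ± 0.28 in EBF1, 2.09 ± 0.28 in PPARg and 2.39 ± 0.28 in vector cells (adjusted p = 1.17e-09, 4.3e-08 and 1.61e-09). No other gene of this list rose at d2 past the test, while 3 fell in EBF1, 2 in PPARg and 3 in vector cells. Papss1 was among those that fell (-0.60, -0.79 and -0.88). The shares called over all probe sets were 22.2%, 23.6% and 21.5%. At d2 Has2 was higher in EBF1 than in vector cells (1.05 ± 0.28, adjusted p = 0.0369). At d10 Ugdh, which makes the UDP-glucuronate of these chains, was lower in PPARg cells (-0.74 ± 0.15, adjusted p = 0.00017). It was 1 of 2 genes among the 9 lower there, near the 23.6% called over all probe sets. Of 14 tested genes of TGF-beta signalling, 4 were lower and 0 higher in PPARg cells at d10 and 4 lower and 0 higher in EBF1 cells, which is near the 23.6% and 18.3% called over all probe sets. They included Ltbp1, a TGF-beta binding protein of the matrix, with PPARg (-1.02 ± 0.15, adjusted p = 7.94e-07), and Smad1 with both (-0.69 ± 0.16 for PPARg and -0.58 ± 0.18 for EBF1; adjusted p = 0.000964 and 0.0167).

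The summed signals of fibroblast and adipocyte markers differed between inserts at the late days. The summed intensity of 10 fibroblast markers, all on the array and 1 of them (Fap) below the floor of 54.5 in every group mean, was 25932 to 26296 in EBF1 cells, 20518 to 20919.5 in PPARg cells and 32675 to 36678 in vector cells at d10. The sum of 8 adipocyte markers of 10 listed was 21375 to 25873 in EBF1 cells, 18509 to 20556 in PPARg cells and 3400.4 to 5574 in vector cells at that day. At d4 the adipocyte sum was 9234 to 14629.6 in EBF1 cells, 9985 to 12862 in PPARg cells and 5528 to 7784 in vector cells, and the fibroblast sum was 14217 to 16350.2 in EBF1 cells, 15426 to 19477 in PPARg cells and 18202 to 24149.8 in vector cells. The lower Bgn and Vcan at d10 and, in EBF1 cells, at d4, and the lower Dcn and Sparc of PPARg cells at d10, went with more adipocyte marker signal and less fibroblast marker signal. At d4 PPARg cells also had more adipocyte and, on average, less fibroblast marker signal than vector cells, but Bgn was not lower (5186.5 against 4958). Vcan missed the threshold there (-0.19) and passed it under quantile normalization (-0.28). The part of these marker shifts in the results was not tested. At d0 the adipocyte sums were 1515 to 1723 in EBF1 cells, 1539 to 1689 in PPARg cells and 1151 to 1583 in vector cells. The fibroblast sums at d0 were 28966 to 32633 in EBF1 cells, 27346 to 29986 in PPARg cells and 29141 to 33613 in vector cells, lower on average in PPARg cells, where Dcn and Lum were lower; the part of this in the d0 differences was not tested. Markers of epithelium, endothelium, macrophages and B lymphocytes had summed means between 362 and 836 in all 12 groups. The epithelial Epcam and Krt18 and the leukocyte marker Ptprc were below the floor of 54.5 in every group mean. Other markers of these lists were above it in every group mean. Among them were the epithelial Krt8 (304 to 435) and Cdh1 (174 to 239). The B lymphocyte marker Cd79a (313 to 364) and the macrophage marker Cd68 (156 to 193) were others. Whether such cells were present was not tested. Skeletal muscle markers summed to 1175 to 1505.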

How the data were processed

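Total RNA of transduced NIH-3T3 cells was measured on 53 arrays in 12 groups (insert by day), taken from the sample titles. The deposited values are linear intensities per probe set; the summarising algorithm and the scaling are not given in the sources used here, and no further scaling was applied. The authors' deposited experiment files (unit other) were read only for the month of each array, from which its session was set. The number of arrays limits the precision. Values under the pooled 20th percentile (54.5) were set to it before log2; 66 control probe sets were left out; 7619 probe sets above the pooled median (158) on at least 2 arrays were tested. One limma 3.58.1 model in R 4.3.3, with 12 group means and an intensity trend, gave 25 comparisons, each adjusted by Benjamini-Hochberg over 7619 probe sets, and was tested on simulated data. Of 12488 probe sets, 10855 had 1 symbol and 396 several; a gene is represented by its brightest tested probe set. Related genes named are the up to 2 per list and comparison with the largest difference past the test, as far as a result above turns on them, and the 3 genes most like each member.

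The members, lists and tests were chosen with earlier results of these data known. Replicate numbers were checked as pairs through the correlation of deviations from group means. EBF1 and vector arrays at d2 gave 0.62 to 0.68 in all 4 pairs and were treated as paired. Arrays with different numbers were not correlated, so a pairing cannot be told apart from a shared session. Over all 52 pairs of inserts r ran from -0.58 to 0.78, with 31 over 0.1. Alternatives were quantile normalization, other floors and filters, only the groups compared, replicate or session as a block, single sessions, leaving out each array, and averaging a gene's probe sets. Promoter windows came from RefSeq (GRCm38.p6).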

Additional observations from a re-analysis of the deposited data

Results flagged for a closer look

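Of 72 sets of a gene and a group with 4 or more arrays, 5 had a lone array, and about 1 in 20 sets does so by chance. Lum in PPARg d0 replicate 4 read 143, against 198 to 204 on the other arrays of its group. Postn in PPARg d4 replicate 7 read 1691, against 1323 to 1452. The other 3 were vector arrays. In vector d0 replicate 4 both Vcan (880.0, against 1232 to 1287) and Sparc (1148, against 1684 to 1757) were low. Postn in vector d2 replicate 4 read 742, against 1020.5 to 1073.

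The difference between an insert and vector changed between days for 5 of the 8 genes, by the limma test of that change. Over all probe sets the share called was 7.26% at d4 and 12.7% at d10 for EBF1. For PPARg it was 1.64% at d4 and 12.3% at d10. The share called in any of these tests was not counted. For EBF1 at d10 against d0 the change on the log2 scale was -0.98 for Bgn, -0.89 for Vcan, -1.76 for Postn and -1.69 for Sparcl1. At d4 against d0 it was -0.63 for Bgn, -0.86 for Postn and -1.78 for Sparcl1. For PPARg the change at d4 was 0.56 for Dcn and 1.02 for Postn, and at d10 -0.99 for Bgn and -0.95 for Vcan. Within sessions 1 and 2, which held both d0 and d4, the EBF1 change of Sparcl1 was -1.21 and -2.10, that of Postn -0.45 and -1.20 and that of Bgn -0.68 and -0.50. The PPARg change of Postn was 1.40 and 1.01, and that of Dcn 0.45 and 0.73. The d10 changes have no such values, since d0 and d10 share no session.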

How the results depend on the processing

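No log2 difference of a member changed sign past the threshold under any alternative. Of 200 member differences, 180 kept their side of the threshold under quantile normalization, 181 with only the groups compared, 166 with the replicate block and 173 with the session block, and the blocks mostly added calls. The same held for 199 with the floor at the 40th percentile, for 195 with no filter, for 174 of 175 under a strict filter and for 172 of 175 with a gene's probe sets averaged. Leaving out 1 array lost a call in 61 of 2104 refitted differences and added one in 17. With the replicate block the members past the test were 18 in place of 10 for EBF1 against vector, 17 in place of 11 for PPARg against vector and 18 in place of 11 for the change of insert effects since d0. With the session as a block the members past the test were 18 for EBF1 and 17 for PPARg against vector. Calls over all probe sets grew too. With the replicate block they rose from 62 to 100 and from 117 to 220 for EBF1 against vector at d0 and d2. For PPARg against vector they rose from 274 to 436, 43 to 91 and 571 to 873 at d0, d2 and d4. The gains were thus not particular to the members. Leaving out 1 array gave 8 to 12 for EBF1 against vector, 10 to 12 for PPARg against vector, 10 to 12 for EBF1 against PPARg, 15 to 18, 11 to 14 and 9 to 12 for the day steps with EBF1, PPARg and vector, and 10 to 12 for the change of insert effects. Counts within a single session were not made, since no session holds all days. Under quantile normalization these differences passed that had not: Lum 1.08 and Postn 0.56 (EBF1 against vector d2), Sparc -0.46 (EBF1 against vector d4), Sparc -0.71 (EBF1 against vector d10), Vcan -0.28 (PPARg against vector d4), Postn -0.57 and Sparcl1 0.59 (PPARg against vector d10), Vcan 0.32 (EBF1 against PPARg d0), Vcan -0.32 (EBF1 against PPARg d2), Bgn -0.33 (EBF1 d10 against d4), Postn -0.49 (PPARg d4 against d2), Vcan -0.28 (vector d10 against d4), Vcan -0.45 (EBF1 effect at d4 against d0), Dcn 0.66 (PPARg effect at d10 against d0); and these no longer passed: Dcn -0.44 (PPARg against vector d2), Bgn 0.083 (EBF1 d4 against d2), Bgn 0.17 (PPARg d4 against d2), Postn 0.38 (vector d4 against d2), Bgn 0.20 (vector d10 against d4), Dcn 0.58 (PPARg effect at d4 against d0). With the session as a block further calls gained were Dcn 0.41 and Lum 1.04 and Postn 0.57 (EBF1 against vector d2), Sparc -0.43 (EBF1 against vector d4), Lum -0.78 (EBF1 against vector d10), Bgn 0.27 (PPARg against vector d2), Lum 0.65 (EBF1 against PPARg d0), Dcn 0.18 (EBF1 against PPARg d4), Dcn 0.36 (EBF1 against PPARg d10), Postn -0.38 (PPARg d4 against d2), Sparcl1 0.45 (vector d4 against d2), Vcan -0.40 (EBF1 effect at d4 against d0), Dcn 0.43 and Sparc -0.85 and Sparcl1 0.67 (PPARg effect at d10 against d0); Postn in vector cells at d4 against d2 was lost (0.31). With only the groups compared, PPARg against vector lost Vcan at d0 (adjusted p = 0.191) and Dcn (0.0733) and Postn (0.12) at d2. The causes were not tested. Probe sets past the test fell to 31 in place of 62 for EBF1 against vector at d0 and to 25 in place of 117 at d2 with only the groups compared, to 115 in place of 274 and 17 in place of 43 for PPARg against vector at d0 and d2, and to 0 in place of 101 for EBF1 against PPARg at d10. Without EBF1 d10 replicate 1 the EBF1 count against vector at d10 was 614 in place of 1393, and that against PPARg 12 in place of 101. The replicate block was read as a pairing only for EBF1 against vector at d2, where it added Dcn, Lum and Postn. The session block added the same genes there, so a pairing cannot be told apart from a shared session. Low signal over background limits Fmod, and the 2 EBF1 arrays limit d10.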
